A study of Homo sapiens with 4 samples.

Results

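The transmembrane BAX inhibitor motif (TMBIM) family comprises 6 genes in human cells, TMBIM1, FAIM2, GRINA, TMBIM4, GHITM and TMBIM6, and they are described here as 6 of the 18417 genes measured on 4 Affymetrix Human Gene 1.0 ST arrays. The members were taken by name, after TMBIM1 had been selected on its difference between p53si-1 and NS on these same arrays, so the members' values in this contrast are given as a description, with no test. RNA came from MDA-MB-468, an established line of human breast cancer cells with p53 of the R273H mutant form. Lentivirus brought in p53si-1, an shRNA against that mutant p53, for 2 of the arrays, and a non-targeting shRNA (NS) for the other 2. All cells were thus virus-transduced cells of 1 line, and both p53si-1 arrays carry the same shRNA sequence, so effects of p53 loss and of that particular sequence cannot be told apart. RNA was taken 48 h after transduction by the methods and 72 h by the results text, and both groups are taken to share that time. The transcript of p53 was not analysed here. Each member was read by 1 transcript cluster, the probe set of a gene on this array, numbered 8058927 (TMBIM1), 7963142 (FAIM2), 8148694 (GRINA), 7964745 (TMBIM4), 7928752 (GHITM) and 7955277 (TMBIM6).

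TMBIM proteins are small membrane proteins that cross the bilayer several times and sit in the endoplasmic reticulum (ER), Golgi, lysosome, endosome or mitochondrial membranes. The family was named after BAX inhibitor-1 (TMBIM6), found as a human protein that blocks BAX-induced death in yeast. Its members are known for limiting cell death, either by restraining Fas signalling or by letting calcium leak from internal stores, and TMBIM1 is the member placed in lysosomes and late endosomes.

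TMBIM1 was also followed by real-time RT-PCR in the study, and the primers are shown because they define the stretch of transcript amplified there. Start regions of TMBIM1 and TMBIM6 are shown because these members had the largest differences in the family, in opposite directions. Each is 250 bases before to 50 bases after an annotated start, 5′ to 3′ on the gene's strand, from RefSeq on GRCh38.p14. Capitals mark matches on either strand to the letters GGGCGG, to the CCAAT box and to the p53 half-site.
TMBIM1 forward primer: cgtgtcctatgctgtcttcgt
TMBIM1 reverse primer: tgatggtgtgcttccggttc
TMBIM1, chr2:218292454-218292753, minus strand: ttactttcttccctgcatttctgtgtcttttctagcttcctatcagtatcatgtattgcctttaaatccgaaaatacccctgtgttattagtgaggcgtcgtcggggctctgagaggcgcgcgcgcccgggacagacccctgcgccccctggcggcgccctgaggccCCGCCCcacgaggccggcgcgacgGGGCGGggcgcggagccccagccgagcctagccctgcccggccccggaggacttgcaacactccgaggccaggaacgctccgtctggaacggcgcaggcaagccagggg
TMBIM1, chr2:218289947-218290246, minus strand: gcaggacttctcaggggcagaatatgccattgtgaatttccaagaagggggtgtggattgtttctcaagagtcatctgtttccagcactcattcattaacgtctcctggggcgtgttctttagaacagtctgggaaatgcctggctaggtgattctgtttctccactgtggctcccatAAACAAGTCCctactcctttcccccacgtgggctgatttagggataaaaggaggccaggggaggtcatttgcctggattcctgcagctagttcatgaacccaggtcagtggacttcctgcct
TMBIM6, chr12:49741307-49741606, plus strand: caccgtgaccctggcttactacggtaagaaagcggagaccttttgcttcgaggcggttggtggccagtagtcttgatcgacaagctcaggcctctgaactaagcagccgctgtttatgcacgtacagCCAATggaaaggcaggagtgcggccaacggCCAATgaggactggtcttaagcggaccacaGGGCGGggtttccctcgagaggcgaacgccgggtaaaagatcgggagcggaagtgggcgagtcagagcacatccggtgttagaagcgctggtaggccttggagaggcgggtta

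Start regions were read as 6 windows for 3 members, 3 of them for TMBIM1. Windows on chromosome 8, where GRINA lies, were left out of this reading. The first TMBIM1 window was GC-rich, with 65.7% G or C and 29 CpG dinucleotides, against a median of 58.7% and 14 CpG over all 35116 windows of the same length. It held GGGCGG, the core of the GC box, at positions -83 and -59 from the start (counted to the first base of the match), and no CCAAT box. Of all windows, 45.0% held GGGCGG. The second TMBIM1 window, at a start further into the gene, had 50.3% G or C, 3 CpG and 1 match to the p53 half-site at position -72, a match that 6.6% of all windows held. That share is per window, and 3 windows were searched for TMBIM1, so it understates how often such a gene would hold a match. The third TMBIM1 window, with 55.3% G or C and 4 CpG, had no match to any of the motifs searched. The first TMBIM6 window had 58.3% G or C and 22 CpG, with CCAAT at -123 and -93 and GGGCGG at -63. The second TMBIM6 window, with 61.0% G or C and 16 CpG, held GGGCGG at -40 and no CCAAT box. The GHITM window held CCAAT at -125 and -45 and GGGCGG at -133. CCAAT was present in 34.6% and TATAAA in 11.5% of all windows. The letters GGGCGG, the CCAAT box, the TATA box as TATAAA and the p53 half-site were searched on both strands, overlapping matches included. A match is a description of letters, and which start these cells used was not measured.

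TMBIM1, also known as RECS1, is a lysosomal and late endosomal protein that lowers Fas at the cell surface and, in mouse, takes part in multivesicular body formation. Its log2 signal was 9.69 and 9.40 on the p53si-1 arrays, against 10.74 and 10.64 on the NS arrays. Both p53si-1 arrays lay below both NS arrays, and the groups were far apart compared with the arrays within each. The group means were 9.55 ± 0.203 with p53si-1 and 10.69 ± 0.0682 with NS (SD, n = 2 arrays each), a difference of -1.15 on the log2 scale (p53si-1 minus NS), or a 2.22-fold lower signal. Over the 4 pairings of a p53si-1 array with an NS array, the difference ran from -1.34 to -0.96. Only 1 of the 18417 genes had a lower difference than TMBIM1. The second minus the first array was -0.29 for TMBIM1 with p53si-1, a gap larger in size than that of 89.7% of genes between those arrays, and -0.10 with NS.

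FAIM2, also called lifeguard, is best known as a neuronal inhibitor of Fas-induced death. Its log2 signal was 5.30 and 5.53 with p53si-1, against 5.36 and 5.43 with NS. The NS arrays lay between the p53si-1 arrays, so the groups overlapped. The means were 5.41 ± 0.158 with p53si-1 and 5.39 ± 0.0514 with NS (SD, n = 2 each), with a difference of 0.02 and a range of -0.13 to 0.17 over the array pairings. FAIM2 stood at percentile 34.1 of signal among all genes, and the deposited values carry no detection call, so whether it was expressed cannot be told from them.

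GRINA (TMBIM3), a protein of the ER and Golgi that binds the inositol trisphosphate receptor and was named after the glutamate receptor, had a log2 signal of 8.37 and 8.29 with p53si-1, against 8.42 and 8.33 with NS. The groups overlapped. The means were 8.33 ± 0.0563 with p53si-1 and 8.37 ± 0.0677 with NS (SD, n = 2 each), a difference of -0.04. TMBIM4, the Golgi anti-apoptotic protein, which lowers the calcium content of the Golgi and ER, had 9.56 and 9.77 with p53si-1, against 9.52 and 9.50 with NS. Both p53si-1 arrays were above both NS arrays, but the closest pair was only 0.05 apart while the p53si-1 replicates were 0.21 apart. The TMBIM4 means were 9.67 ± 0.149 with p53si-1 and 9.51 ± 0.0119 with NS (SD, n = 2 each), a difference of 0.16, and 72.2% of all genes had a smaller difference in either direction.

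GHITM (TMBIM5), which lies in the mitochondrial inner membrane and is needed for normal cristae, was the most even member across the arrays. Its log2 signal was 11.12 and 11.10 with p53si-1, against 11.10 and 11.07 with NS. The lower p53si-1 array and the higher NS array met at 11.10. The means were 11.11 ± 0.0176 with p53si-1 and 11.09 ± 0.02 with NS (SD, n = 2 each), a difference of 0.02 that turned to -0.02 when the arrays were quantile normalized again.

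TMBIM6, the ER member that gave the family its name and also restrains the stress sensor IRE1, differed in the direction opposite to TMBIM1. Its log2 signal was 12.31 and 12.20 with p53si-1, against 12.00 and 11.86 with NS. Both p53si-1 arrays were above both NS arrays, and the gap between the groups exceeded that between replicates. The means were 12.26 ± 0.0729 with p53si-1 and 11.93 ± 0.0933 with NS (SD, n = 2 each), a difference of 0.33 or 1.25-fold, ranging from 0.21 to 0.44 over the array pairings. The difference was larger in size than that of 93.8% of all genes, and it ranked 466 counted from the highest.

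**Figure D1:**
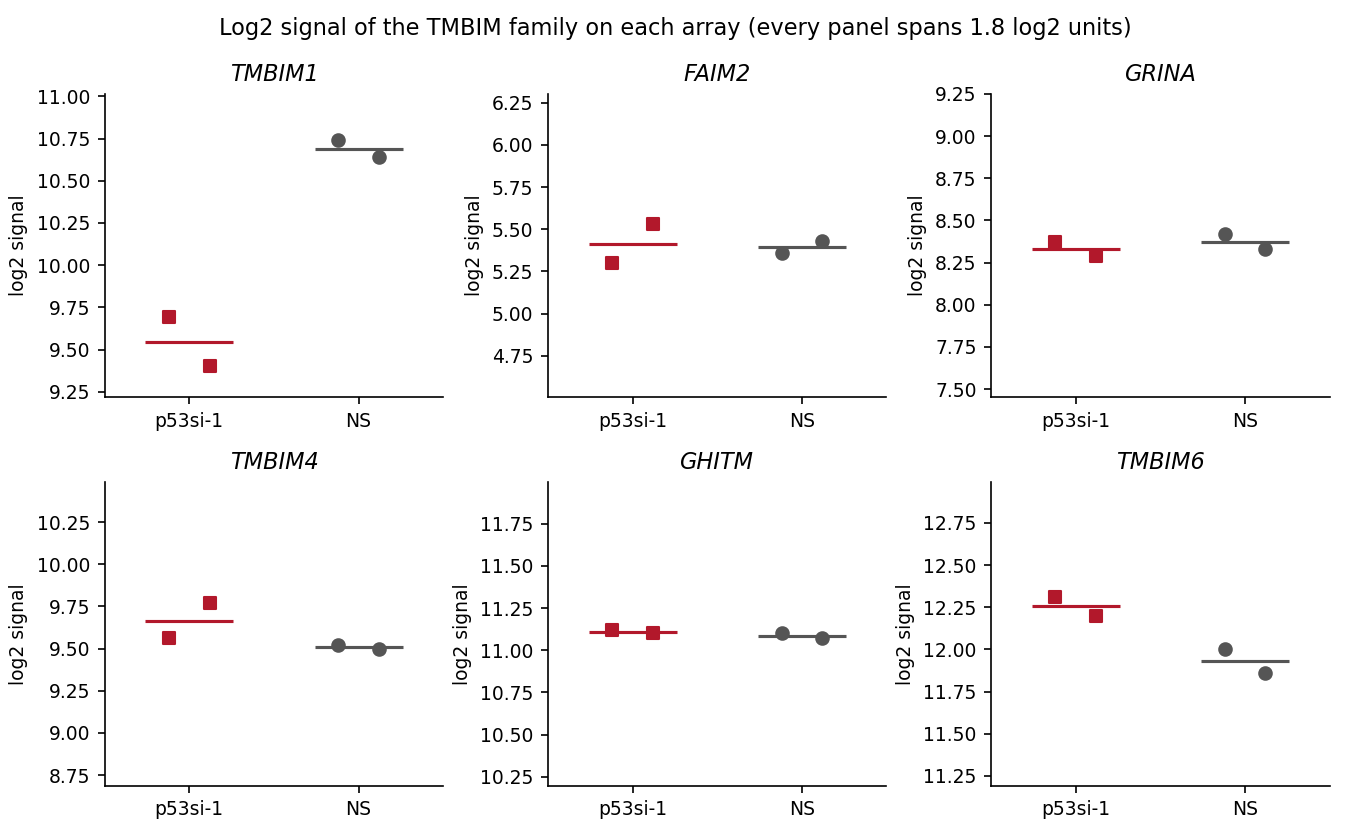
Log2 signal (vertical axis) of each TMBIM gene on the 2 p53si-1 arrays (red squares) and the 2 NS arrays (grey circles), with horizontal lines at the group means and every panel spanning the same number of log2 units. TMBIM1 differs by -1.15 and TMBIM6 by 0.33 (p53si-1 minus NS), and the arrays of FAIM2, GRINA and GHITM overlap between the groups.

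By the 1.5-fold criterion of the study, 1 of the 6 members was lower with p53si-1 and 0 were higher, where 0.652% of all genes were lower and 0.271% were higher past that fold. The p53si-1 and NS arrays did not overlap for TMBIM1 in the lower direction and for TMBIM4 and TMBIM6 in the higher one, beside 22.6% of all genes lower and 19.9% higher without overlap. Since the members were chosen with this contrast known, nothing is read from these counts. The 5 relatives of TMBIM1 had differences of -0.04 to 0.33, with a median of 0.02, against a median of -0.009 over all genes and a median size of 0.09. The difference of each relative exceeded that of TMBIM1, least for GRINA and then by 1.17 for FAIM2 and GHITM, 1.31 for TMBIM4 and 1.47 for TMBIM6 on the log2 scale.

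**Figure D2:**
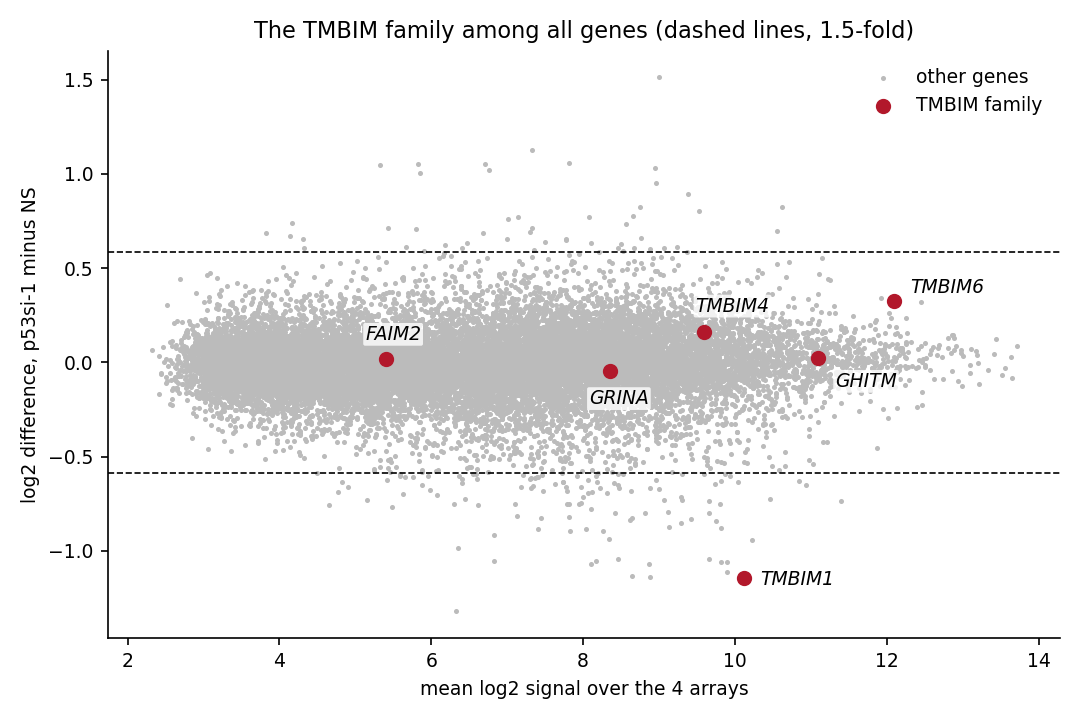
Difference in log2 signal (vertical axis, p53si-1 minus NS) against the mean log2 signal over the 4 arrays (horizontal axis) for the 6 TMBIM genes (red) and the other genes (grey), with dashed lines at 1.5-fold. TMBIM1, at -1.15, lies at the lower edge of all genes, and the 5 relatives lie between -0.04 and 0.33, inside the dashed lines.

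To see which genes followed TMBIM1 most closely over the 4 arrays, each gene's log2 profile was centred on its own mean and set against that of TMBIM1 by the root mean square difference. The nearest of all 18417 genes was SF3B6, a subunit of the SF3b complex of the spliceosome, at 0.038 log2 units. Its signal was 9.43 and 9.24 with p53si-1, against 10.50 and 10.39 with NS, a difference of -1.11. The next were TPM1, a tropomyosin of actin filaments, and ALDH2, the mitochondrial aldehyde dehydrogenase, both at 0.058, followed by OSTC, a subunit of the ER oligosaccharyltransferase, at 0.075 and SGCE, a sarcoglycan, at 0.077. Their differences lay between -1.14 (SGCE) and -1.06 (ALDH2), and their p53si-1 and NS arrays did not overlap. As for TMBIM1, the second p53si-1 array was the lower for all 5, with second minus first array at -0.37 (ALDH2) to -0.09 (SGCE). The likeness rests on 4 arrays and mainly on the difference between the groups. Similar differences, groups without overlap and a like order of the replicates follow largely from choosing genes by this likeness. Within the family the nearest to TMBIM1 was GRINA at 0.56, with GHITM at 0.59, FAIM2 at 0.61, TMBIM4 at 0.68 and TMBIM6 at 0.74.

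**Figure D3:**
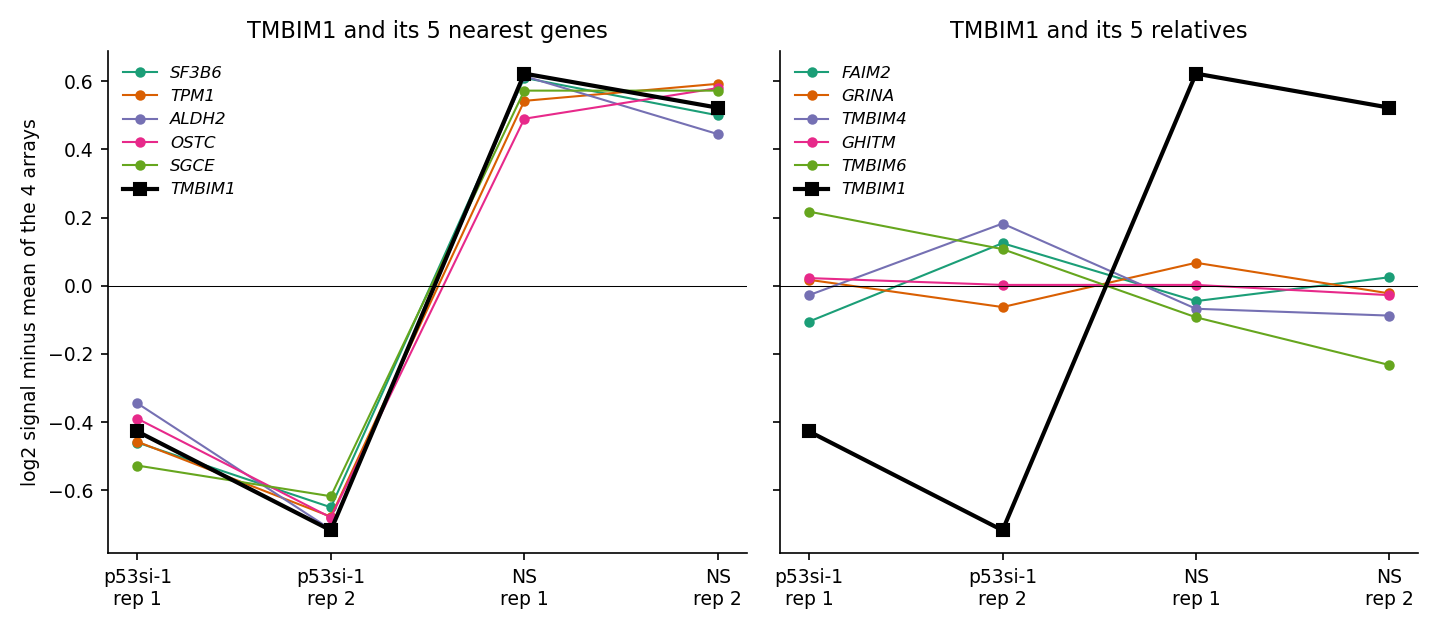
Log2 signal minus the gene's mean over the 4 arrays (vertical axis) on each p53si-1 and NS array (horizontal axis), for TMBIM1 (black squares) beside its 5 nearest genes (left panel) and its 5 relatives (right panel). The 5 nearest genes, chosen for following TMBIM1 closely, have differences of -1.14 to -1.06. The relatives stay nearer 0, with differences of -0.04 to 0.33.

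In the RefSeq gene table, PNKD, a gene whose product is linked to a paroxysmal movement disorder, overlaps TMBIM1 and runs on the other strand. PNKD signal was 7.89 and 7.83 with p53si-1, against 7.77 and 7.89 with NS, so that its groups overlapped and its difference was 0.03. The other close neighbours were AAMP, an angio-associated protein, at 0.07, GPBAR1, a bile acid receptor, at -0.08, CATIP, a ciliogenesis protein, at 0.10, SLC11A1, a metal transporter of phagosomes, at -0.17 and CTDSP1, a phosphatase, at 0.10. The arrays of each of these neighbours overlapped between the groups. Among the 20 measured genes nearest to TMBIM1, 12 had a lower mean with p53si-1, the differences ran from -0.36 (PLCD4, a phospholipase C) to 0.25 (USP37, a deubiquitinase), and 0 were past 1.5-fold. Over all genes the median difference was -0.009, so lower means were the more frequent there too. The 20 nearest to TMBIM6 ran from -0.23 to 0.19, below the 0.33 of TMBIM6 itself. FAIM2 is the third measured gene from TMBIM6 on chromosome 12, with NCKAP5L (0.08) and BCDIN3D (-0.04) between them, and its own difference was 0.02.

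**Figure D4:**
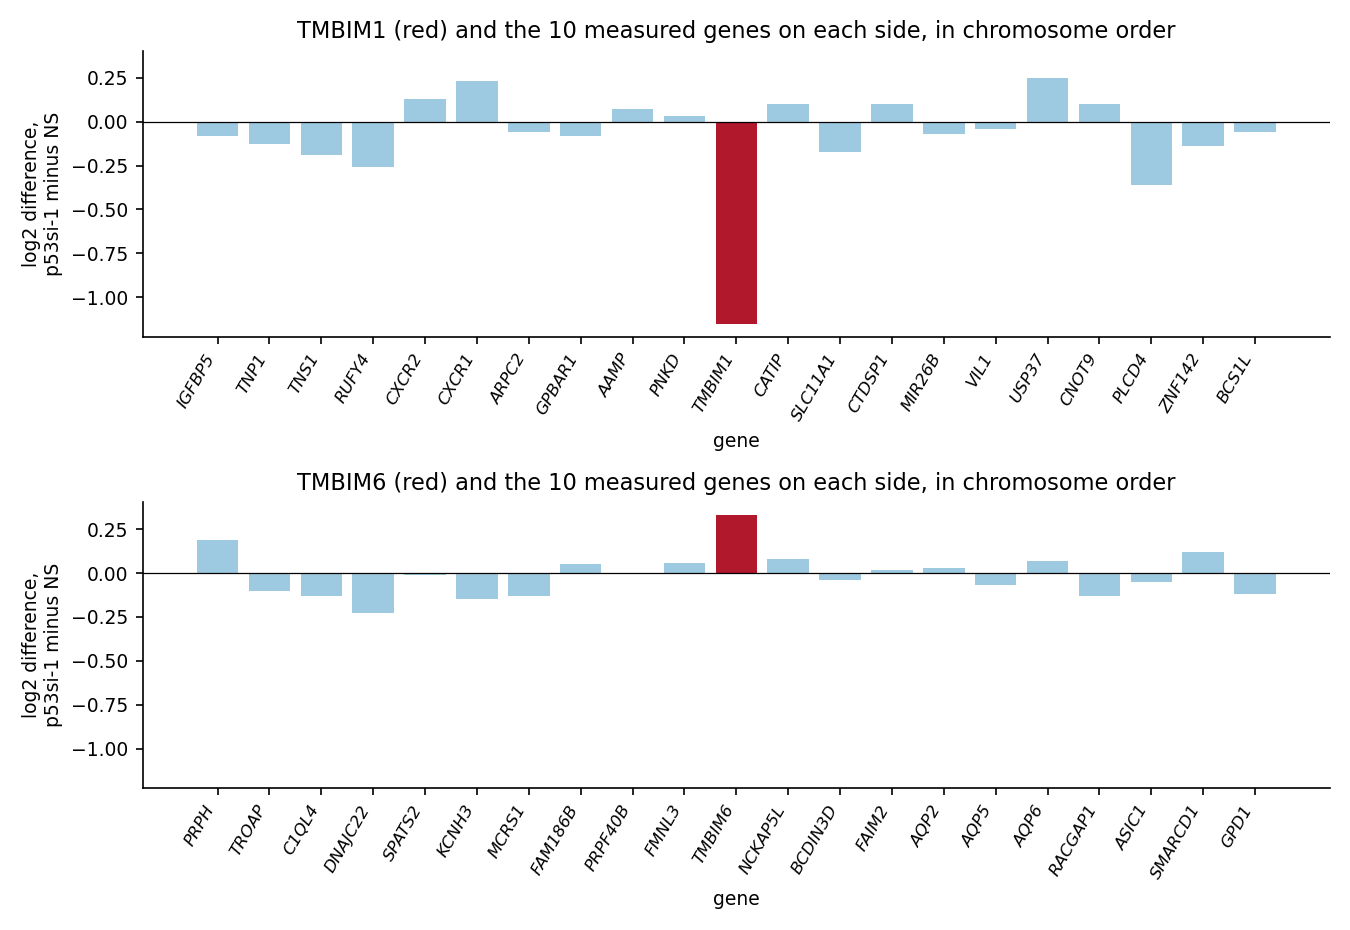
Difference in log2 signal (vertical axis, p53si-1 minus NS) of TMBIM1 (top, red) and TMBIM6 (bottom, red) and of the 10 measured genes on each side of them in chromosome order (blue bars). TMBIM1 stands at -1.15 among neighbours that span -0.36 to 0.25, and TMBIM6 at 0.33 among neighbours that span -0.23 to 0.19.

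The partners and compartments of the family were then followed through 7 lists written by role, which held 130 genes, 118 of them measured. Here limma was run over all 18417 genes, with Benjamini-Hochberg adjustment. At adjusted p under 0.05 the fit called 0 of the 118 genes, beside 0.0326% of all genes higher and 0.076% lower. The smallest adjusted p among them was 0.0903. At unadjusted p under 0.05, 4 list genes (3.4%) were higher and 15 (12.7%) lower, where 5.45% of all genes were higher and 6.8% lower. The p53si-1 and NS arrays did not overlap for 25 list genes (21.2%) in the higher direction and 44 (37.3%) in the lower one, beside 19.9% and 22.6% of all genes. Past 1.5-fold, 0 list genes were higher and 1 was lower, beside 0.271% and 0.652% of all genes. The median difference over the 118 genes was -0.01, and -0.009 over all genes.

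Among death receptor genes, which include that of Fas, the receptor tied to TMBIM1 and FAIM2, 0 of 14 measured passed the test. The mean was lower with p53si-1 in 9, and the median difference was -0.09, beside -0.009 over all genes. With that median, more of all genes had a lower mean than a higher one. FAS, the receptor itself, had 7.02 and 6.83 with p53si-1, against 7.39 and 7.41 with NS, a difference of -0.47 ± 0.10 (SE, limma adjusted p = 0.149). FADD, the adaptor that joins Fas to caspase 8, had 8.95 and 9.07 with p53si-1, against 9.49 and 9.35 with NS, a difference of -0.41 (adjusted p = 0.191). Neither FAS nor FADD arrays overlapped between the groups, whereas those of TNFSF10, the ligand TRAIL, did, at a difference of -0.25 (adjusted p = 0.622). Of BAX, BAK and their anti-apoptotic partners, 0 of 7 passed and the median was -0.04. BAK1, which permeabilizes the outer mitochondrial membrane, differed by -0.37 (adjusted p = 0.268), its relative BOK by -0.23 (adjusted p = 0.411), and the anti-apoptotic BCL2A1 by -0.22 (adjusted p = 0.363). BCL2A1 stood at percentile 11.8 of signal, so whether it was expressed cannot be told.

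Genes of ER calcium release, uptake and entry, the process tied to TMBIM6, GRINA and TMBIM4, had a lower mean in 12 of 18, a median of -0.05 and 0 calls. Over all genes the median was -0.009, and more genes had a lower mean than a higher one. Arrays did not overlap for 10 of the 18 in the lower direction and 1 in the higher, beside 22.6% and 19.9% of all genes. By that count it was the most uneven of the 7 lists, and the count is given for that reason, after the values were seen. Death receptor genes had 7 of 14 lower and 3 higher without overlap, and the unfolded protein response 7 of 16 and 3. The mitochondrial list had 5 of 21 lower and 6 higher, and endosomal sorting 4 of 18 and 6. The 10 include differences near 0, such as RYR3 at -0.03 and CALR at -0.04. No list was tested as a set. The largest differences were those of ATP2A2, the SERCA pump that fills the ER, at -0.30 (adjusted p = 0.323), STIM1, the sensor of ER calcium, at -0.30 (adjusted p = 0.258) and ITPR2, a calcium release channel, at -0.27 (adjusted p = 0.445). In the unfolded protein response, 0 of 16 passed and the median was -0.03. SDF2L1, an ER chaperone partner, differed by -0.27 (adjusted p = 0.341), EIF2AK3, the stress sensor PERK, by -0.24 (adjusted p = 0.311), and SEL1L, of ER-associated degradation, by 0.24 (adjusted p = 0.376).

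Of the mitochondrial inner membrane and calcium genes, the compartment of GHITM, 0 of 21 passed and the median was 0.01. MCUB, the inhibitory pore subunit of the calcium uniporter, differed by -0.30 with overlapping arrays (adjusted p = 0.595), LETM2, of the LETM family of inner membrane proteins, by -0.22 (adjusted p = 0.402), and MICU2, a uniporter gatekeeper, by 0.22 (adjusted p = 0.504). LETM2 stood at percentile 16.8 of signal, so whether it was expressed cannot be told.

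Lysosomal genes, from the compartment of TMBIM1, had 0 calls among 24 and a median of -0.01. ATP6V1A, the catalytic subunit of the proton pump that acidifies lysosomes, was the 1 list gene past 1.5-fold. Its signal was 9.42 and 9.10 with p53si-1, against 10.12 and 10.00 with NS, a difference of -0.80 ± 0.13 (SE, limma adjusted p = 0.0903). The other pump subunits on the list did not differ alike. ATP6V1H had 8.34 and 8.62 with p53si-1, against 8.16 and 8.07 with NS, a difference of 0.36 (adjusted p = 0.296), while ATP6V0A1 differed by 0.20 (adjusted p = 0.633), ATP6V0D1 by -0.16 (adjusted p = 0.501) and the accessory ATP6AP1 by 0.03 (adjusted p = 0.924). These 4 pump subunits were named after their values were seen.

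In endosomal sorting and multivesicular body formation, 0 of 18 passed and the median was 0.01. STAM, which with HGS captures ubiquitinated cargo, had 8.33 and 8.35 with p53si-1, against 8.79 and 8.85 with NS, a difference of -0.49 (adjusted p = 0.0955). CHMP2B, an ESCRT-III subunit, differed by -0.35 (adjusted p = 0.191). CHMP5, another ESCRT-III protein, had 8.96 and 9.03 with p53si-1, against 8.67 and 8.51 with NS, a difference of 0.40 (adjusted p = 0.185). With a prior variance that follows signal, limma called ATP6V1A (adjusted p = 0.0363) and STAM (adjusted p = 0.0419), and no other list gene.

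**Figure D5:**
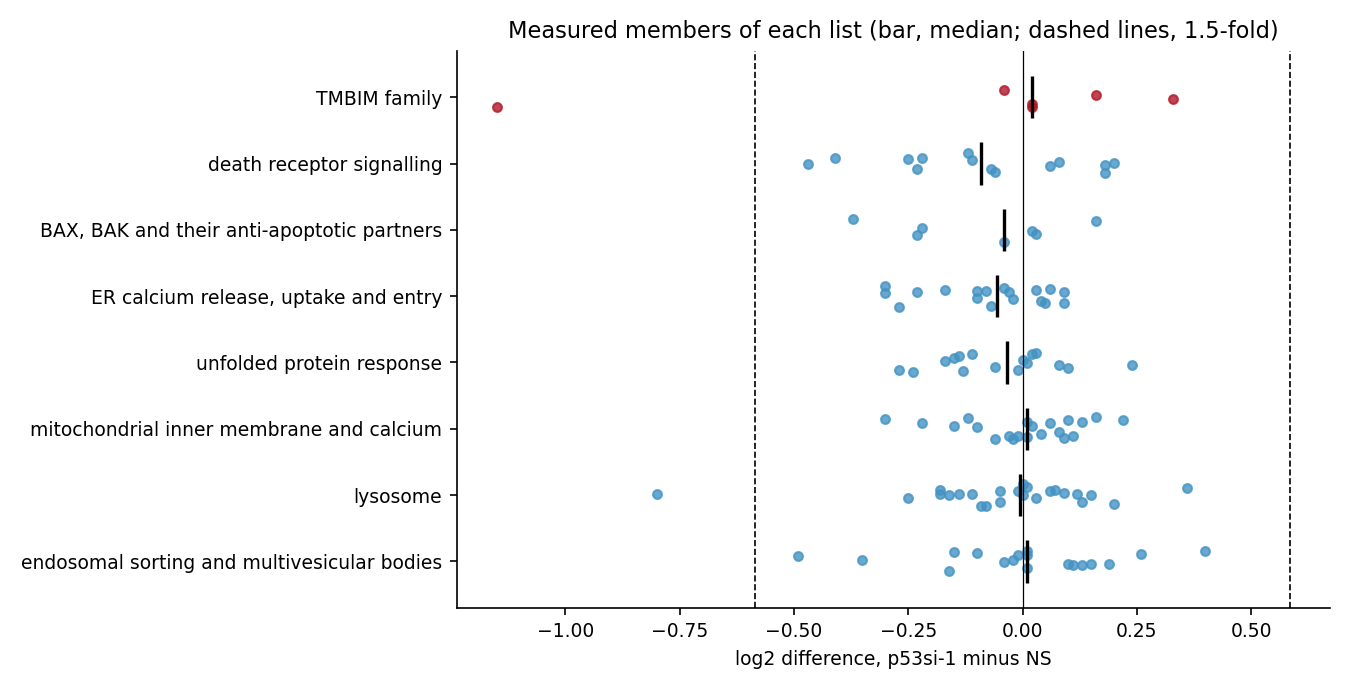
Difference in log2 signal (horizontal axis, p53si-1 minus NS) of the measured members of the TMBIM family (red) and of each of the 7 lists (blue), with black bars at the medians and dashed lines at 1.5-fold. The list medians lie between -0.09 and 0.01, and ATP6V1A at -0.80 is the list gene beyond the dashed line.

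The arrays had nearly equal medians over all transcript clusters, 5.66 to 5.69, and replicates differed by a median of 0.11 with p53si-1 and 0.10 with NS over all genes. Between replicates, 133 genes with p53si-1 and 105 with NS were past 1.5-fold, so single genes at that size also occur without a difference in treatment. These are differences of single arrays, so their counts cannot be set directly against those for differences of group means. GAPDH and B2M, the genes used to scale the RT-PCR of the study, differed by -0.09 and 0.05. The epithelial markers, 6 of 6 measured, stood at percentiles 89.5 to 99.7 of signal, with a median difference of 0.04. Markers of leukocytes (4 of 5 measured), fibroblasts, endothelium and neurons (5 of 5 each) had median percentiles of 7.1, 21.4, 26.4 and 22.9, with CD14 at 92.1 and KDR at 82.6 as the bright exceptions. KDR, the VEGF receptor, differed by 0.50 (adjusted p = 0.275). The arrays hold total RNA of whole cultures, in which fewer cells of a type and less RNA per cell cannot be told apart.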

How the data were processed

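RNA of MDA-MB-468 cells was measured on whole-transcript Affymetrix arrays (Human Gene 1.0 ST), 2 for cells transduced with p53si-1 and 2 for NS. The authors summarized the probes into 1 value per transcript cluster and array. GCOS, RMA and Affymetrix Expression Console are the tools in the submitters' processing notes, with the settings of RMA not given in the sources used here. The deposited values run from 1.75 to 14.3 and were taken as log2 signal from this range, since no source states the scale. RMA makes the distributions of the arrays alike and can understate fold changes, so a shift of most transcripts in the same direction would not be seen.

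Of 33297 clusters, 19460 name 1 symbol in the platform annotation, 1754 several and 12083 none, and only the first were used. Of several clusters of a gene the brightest by mean signal was kept, which left 18417 genes. Each TMBIM gene had 1 cluster. No further normalization or filter was applied. Differences are p53si-1 minus NS group means. limma 3.58.1 in R 4.3.3 (lmFit, eBayes, 2 residual and 4.2 prior degrees of freedom, group as the only term) gave p-values with Benjamini-Hochberg adjustment over all genes. The fit was also run on simulated arrays, and the share of changed genes it recovered there is not reported here. The small number of arrays limits the precision. An exact permutation test of 2 against 2 arrays cannot go below p = 0.333, two-sided. A legend of the study calls the experiments independent, but the labels do not say what separates the replicates. The p-values weigh each difference against the spread between these arrays, pooled in part over all genes. They therefore hold for these arrays only.

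Named are the 6 members, the 5 genes of the nearest profile to TMBIM1, the 3 measured genes on each side of it, list genes past 1.5-fold or else the 3 of a list with the largest difference, GAPDH and B2M. Outside this rule, and chosen after their values were seen, are PLCD4, USP37, NCKAP5L, BCDIN3D, CD14, KDR, ATP6V1H, ATP6V0A1, ATP6V0D1 and ATP6AP1. The members and lists were chosen with earlier results of these data known. Other normalizations, array omissions, a replicate block, a filter on dim genes and other priors were tried as alternatives. Symbols were checked against, and chromosome order and start regions taken from, RefSeq on GRCh38.p14.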

Additional observations from a re-analysis of the deposited data

How the results depend on the processing

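TMBIM1 kept a difference below 0 in all 9 alternatives, at -1.29 to -1.0, and TMBIM6 one above 0, at 0.26 to 0.39. TMBIM4 stayed above 0 at 0.05 to 0.27, where 0.05 is the value within replicate 1 and 0.27 within replicate 2. For TMBIM1, TMBIM6 and TMBIM4 the groups did not overlap and 1 cluster was read. Array omissions, values within a replicate and the mean over clusters could therefore not change their signs, and only the other normalizations could. GHITM moved to -0.02 under quantile normalization, FAIM2 ran from -0.09 to 0.13 and GRINA from -0.09 to 0.00. Calls by limma over all genes depended on the setting. Against 6 genes higher and 14 lower, median centring called 12 and 50, a filter at a mean log2 signal of 5 called 19 and 81, a prior variance by trend 38 and 111, and a robust prior 2 and 2. Leaving out 1 array, whichever it was, called 0 to 1 higher and 0 to 0 lower, with the lone array assumed to vary like the other group. List genes called were 0, and 2 with the prior by trend. Genes past 1.5-fold numbered 50 higher and 120 lower, and leaving out 1 array gave 61 to 110 higher and 133 to 185 lower. The most were past 1.5-fold without p53si-1 replicate 1, at 110 and 185, and without NS replicate 1 the higher count was 85. At 2-fold the counts were 9 and 13, and 0 list genes passed in place of 1. Arrays share replicate numbers in the labels, but no source says that a number marks a shared culture. The deviations of same-numbered arrays from their group means correlated at 0.24 over genes, and with the replicate block 5 genes were called higher and 7 lower. The causes of these changes were not tested.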
